A study of Mus musculus with 16 samples.

Results

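Motile cilia axoneme genes were taken as all rows of the deposited log2 CPM table whose symbol starts with Cfap (cilia and flagella associated protein), Dnah (dynein axonemal heavy chain), Dnai (dynein axonemal intermediate chain), Dnaaf (dynein axonemal assembly factor) or Rsph (radial spoke head). This rule gave 59 of the 16707 genes in the table: 32 Cfap, 15 Dnah, 2 Dnai, 5 Dnaaf and 5 Rsph genes. The 2 Dnai genes found stand there under their older symbols Dnaic1 and Dnaic2. Genes that stand in the table under an older symbol without these prefixes were not counted. RNA was sequenced from primary mouse astrocytes of 4 WT litters (C57/BL6J) and 4 Nlrx1-/- litters, in which NLRX1, a regulatory receptor located at mitochondria, is lacking from every cell type. Cells came from whole brains of P6 pups without meninges, were enriched with beads against the astrocyte surface antigen ACSA-2, and grew in serum-free medium with heparin-binding EGF, in all groups alike. Age and vehicle are given here as in the sample labels, while other passages of the study's text name a younger age and a different vehicle. Each litter gave a vehicle library (water) and a library after 24 h with 500 ng/mL lipopolysaccharide (LPS, from the outer membrane of bacteria) plus the cytokine IFNγ (10 ng/mL), so that 4 conditions had 4 litters each and 16 libraries in all. Genotype and litter cannot be separated, since each litter had 1 genotype, and spread between litters is therefore the error of every genotype comparison.

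The axoneme is the microtubule core of motile cilia and sperm flagella. Outer and inner dynein arms, whose motor subunits are the heavy chains, slide its doublet microtubules against each other. Radial spokes and the central apparatus regulate the arms, inner proteins stabilise the doublets, and assembly factors preassemble the dyneins in the cytoplasm. In the brain these genes are known from the multiciliated ependymal cells that line the ventricles, where the forkhead factor FOXJ1 and the RFX factors drive them. Cultured astrocytes usually carry a single primary cilium, which has no dynein arms, and several Cfap proteins also serve outside the axoneme.

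The promoter windows of a few members are shown first, because the same short motif stood in windows of members that fell and of members that rose. Of the 59 members, 48 matched the promoter table by symbol, with 51 windows of 300 bases (250 before to 50 after the gene's start, RefSeq, GRCm38.p6). Both strands were searched for the RFX site GTTGCC, one arm of the full X-box, for an X-box written as GTNNCC followed after 0 to 3 bases by GGNNAC, and for the forkhead motif TGTTTAC. The single arm and the X-box can overlap. The single arm was in 39.2% of the members' windows and in 12.5% of all 32851 windows. The X-box was in 15.7% and 3.86%, and the forkhead motif in 5.88% and 3.65%. Genes with an X-box were Cfap126, Cfap206, Rsph9, Cfap298, Dnaaf5, Cfap20dc, Cfap43 and Cfap77. The first 3 were lower in Nlrx1-/- cells than in WT after LPS + IFNγ. In the responses to LPS + IFNγ, a separate comparison, Cfap298 and Dnaaf5 rose in both genotypes and Cfap206 fell in both. Cfap126, Rsph9 and Cfap20dc (adjusted p = 0.0499) fell in Nlrx1-/- alone and Cfap43 in WT alone, while Cfap77 was not called. Such a match describes the letters of the window and shows no binding. In the stretches below, read 5′ to 3′ on the strand of the gene and placed on GRCm39 by exact match, capitals mark the X-box. The starts are those of RefSeq and can differ from the GENCODE gene bounds given with the results. The stretches of Cfap126, Cfap298 and Dnaaf5 lie inside their GENCODE genes (chr1:170941487-170954536, chr16:90720584-90732080 and chr5:139135883-139172273). That of Cfap206 reaches across the bound of its gene at 34730238.
Cfap206 (chr4:34730207-34730259, minus strand): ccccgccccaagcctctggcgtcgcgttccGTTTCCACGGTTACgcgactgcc
Cfap126 (chr1:170950502-170950575, plus strand): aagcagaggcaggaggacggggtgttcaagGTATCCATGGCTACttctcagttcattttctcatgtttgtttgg
Cfap298 (chr16:90731762-90731836, minus strand): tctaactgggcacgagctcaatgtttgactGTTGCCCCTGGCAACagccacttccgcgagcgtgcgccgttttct
Dnaaf5 (chr5:139135942-139135989, plus strand): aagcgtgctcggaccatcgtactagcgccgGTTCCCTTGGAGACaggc

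Libraries held from 27259420 to 43752903 read pairs placed on transcripts. Nlrx1 itself lay between 4.08 and 4.44 log2 CPM in the WT libraries and between 1.09 and 2.96 in the Nlrx1-/- libraries, without overlap. All 10 astrocyte markers listed were in the table, with Gfap at a mean of 10.54 log2 CPM in WT vehicle and 8.92 in Nlrx1-/- vehicle. Of the 7 microglial markers only P2ry12 was, at -2.16 in WT vehicle. Summed astrocyte markers were at 6870 to 10800 CPM in WT vehicle and 5390 to 8420 in Nlrx1-/- vehicle. Oligodendrocyte lineage markers were at 913 to 1160 and 839 to 957 CPM, and neural stem cell markers at 1750 to 1960 and 1930 to 2140. Of 14 ependymal markers 12 were present (Tmem212 and Sntn were not), and Foxj1 alone, at a mean of 195 CPM in WT vehicle, made up most of their summed level of 186 to 274 CPM.

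Levels were compared between genes only as Salmon TPM, which is scaled by transcript length. TPM could be used for 50 members whose transcripts paired with a symbol held at least 90% of the deposited CPM. In WT vehicle astrocytes the axoneme genes covered a wide range, from Cfap36 at 120 ± 5.2 TPM (SD, n = 4 litters) to Dnah14 at 0.0188 TPM. The median was 29.3 TPM for Rsph genes, 9.85 for the single Dnai gene with a TPM (Dnaic2), 5.63 for Dnaaf genes, 4.28 for Cfap genes and 0.39 for Dnah genes. After Cfap36, a partner of the small GTPase ARL3 outside the axoneme, came Cfap20 (71.1 ± 11.7 TPM), a protein of the inner junction of the doublets, and Cfap298 (52.6 TPM), a factor of dynein arm assembly.

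The heavy chains stood at the other end. Dnah7b, an inner arm heavy chain, was highest at 6.16 TPM among the 11 heavy chains with a usable TPM, which leaves out Dnah2, Dnah8, Dnah9 and Dnah10, and Dnah6 followed at 1.79 TPM, while Dnah5, the defining heavy chain of the outer arm, was at 0.551 TPM. Under 1 TPM were 16 of the 50 members in WT vehicle and 21 after LPS + IFNγ, and 21 in Nlrx1-/- vehicle and 27 after LPS + IFNγ. Dnah7a, Dnah7b and Dnah7c are near-identical copies, as are Rsph3a and Rsph3b, and how Salmon divided reads among them is uncertain.

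**Figure D1:**
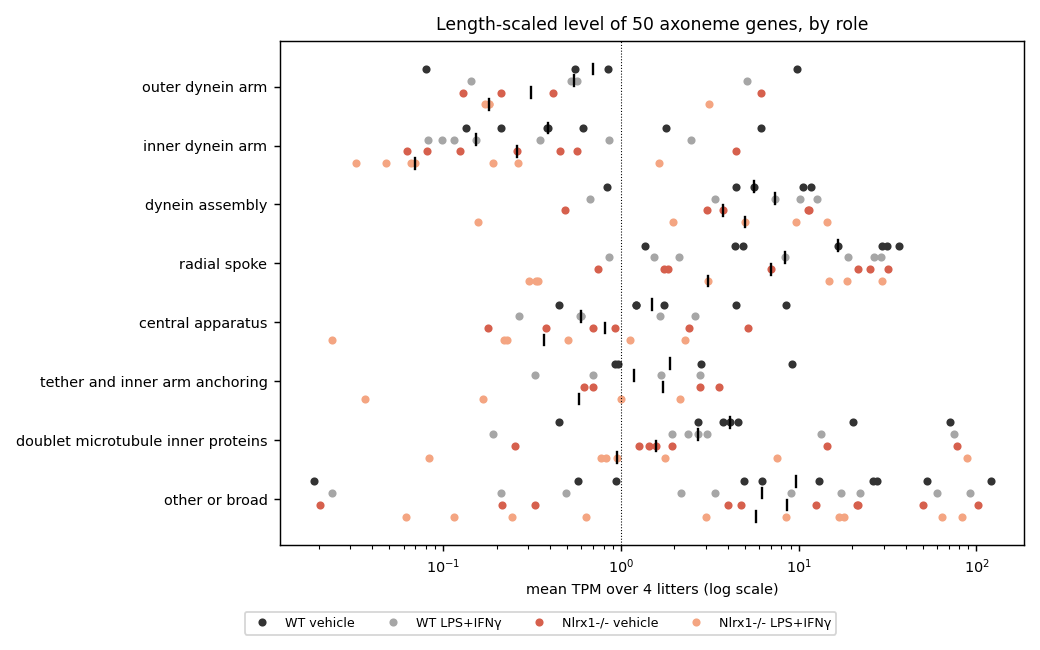
Mean TPM over 4 litters (log axis) of 50 axoneme genes, grouped by role, with 1 row of points per condition and a black bar at the median of the row. Median TPM of the inner arm genes was 0.39 in WT vehicle and 0.0696 in Nlrx1-/- LPS + IFNγ, and that of the dynein assembly genes was 5.63 and 4.99.

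The level of the axoneme genes in a library is given by their median. It was 1.89, 2.07, 2.5 and 2.18 log2 CPM in litters 1 to 4 of WT vehicle, against 1.28, 0.78, 2.05 and 1.44 in Nlrx1-/- vehicle. After LPS + IFNγ the medians were 1.24, 1.74, 2.11 and 1.51 in WT and 0.32, 0.12, 1.14 and 0.73 in Nlrx1-/-. The Nlrx1-/- litters were below all WT litters after LPS + IFNγ, while in vehicle Nlrx1-/- litter 3 reached into the WT range. The median of all genes in the table was between 4.21 and 4.35 in the 16 libraries.

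Litter 3 was the highest of its group for most members in each condition, for 38 of 59 in WT vehicle and 34 after LPS + IFNγ, and for 41 in Nlrx1-/- vehicle and 32 after LPS + IFNγ. The lowest litter was litter 1 in WT vehicle (33 members) and litter 2 in Nlrx1-/- vehicle (33 members). Spread between litters, as the median SD over members, was 0.34 log2 units in WT vehicle and 0.56 in Nlrx1-/- vehicle.

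**Figure D2:**
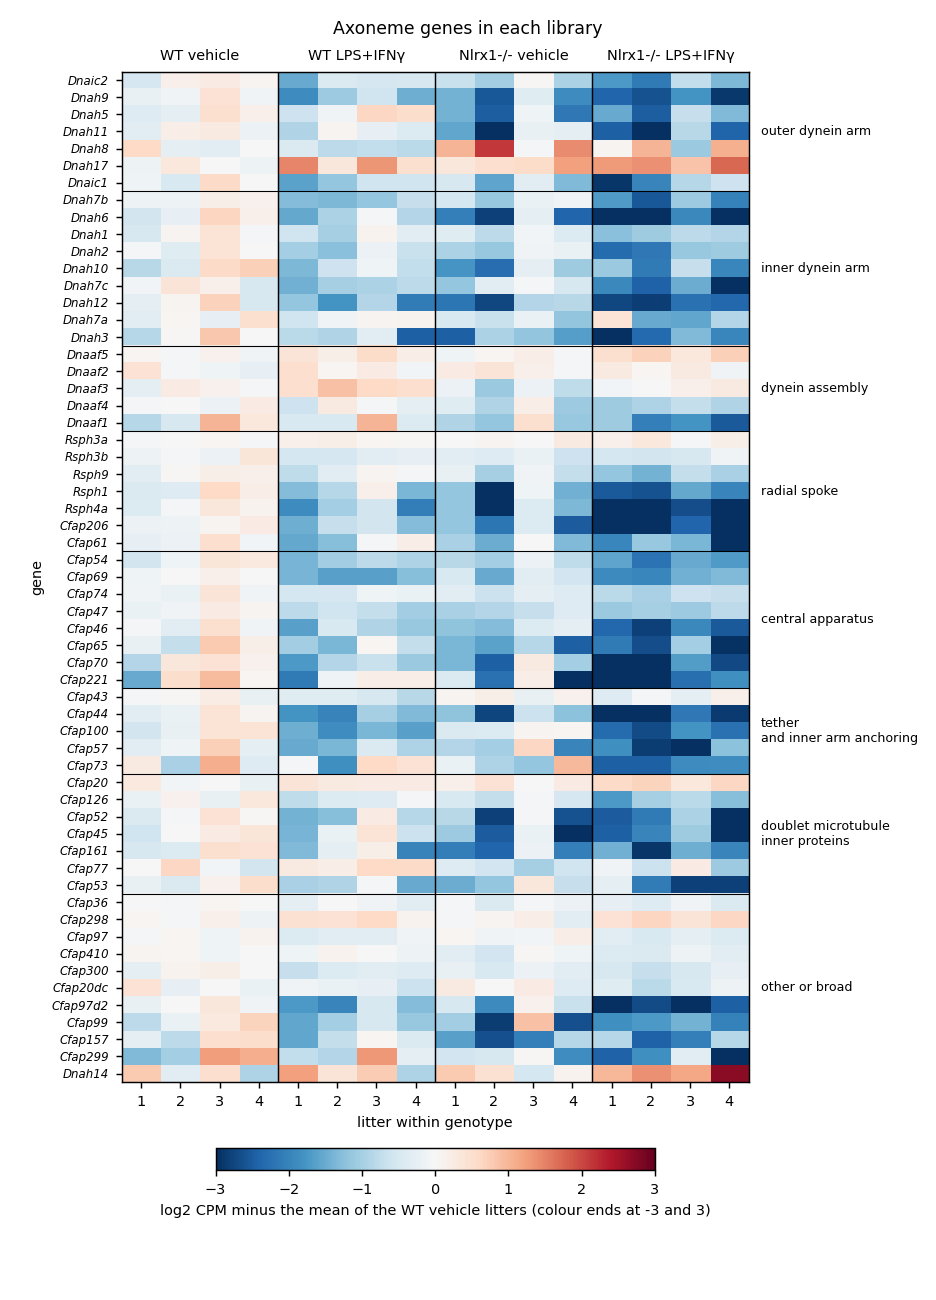
Each row is 1 of 59 axoneme genes and each column 1 library, with colour for the log2 CPM minus the gene's mean over the WT vehicle litters. Blue covers most dynein arm, spoke and central apparatus genes in the Nlrx1-/- LPS + IFNγ columns, with litter 3 paler than the other Nlrx1-/- litters, while Cfap20, Cfap298 and Dnaaf5 stay pale or turn red.

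The first comparison asks which genes differ between Nlrx1-/- and WT astrocytes in vehicle. No member was called lower or higher at an adjusted p of 0.05 with limma, where 0.00599% of all genes were called lower and 0.0% higher. Yet 49 of the 59 members had a lower mean in Nlrx1-/- cells and 10 a higher one, with a median difference of -0.68 log2 units, where the median of all 16707 genes was 0.01. At an unadjusted p of 0.05, 29 members passed, against 21.1% of all genes, and the smallest adjusted p was 0.0928. The groups of litters did not overlap for 12 members lower in Nlrx1-/- (3.43% of all genes) and for 1 higher (6.02%). edgeR called 0 members lower, as it did over all genes, and DESeq2 called 6 members among 266 genes lower and 426 higher. With the replicate number as a block limma called 12 members among 233 genes lower. Without Nlrx1-/- litter 3 it called 19 members among 930 genes lower. In bulk RNA, fewer cells of a type and less RNA per cell cannot be told apart.

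By role, the median difference in vehicle was -0.93 for 7 outer arm genes, -0.95 for 7 radial spoke genes, -0.77 for 8 central apparatus genes, -0.76 for 7 doublet inner proteins, -0.63 for 9 inner arm genes, -0.54 for 5 assembly factors and -0.33 for 5 tether and inner arm anchoring genes. The 11 members in none of these roles had a median of -0.25. Dnah6 had the most negative value. Its levels were 2.82, 3.13, 4.01 and 3.53 log2 CPM in the WT litters and 1.32, 0.58, 3.07 and 1.0 in Nlrx1-/-. Only Nlrx1-/- litter 3 lay within the WT range, and the difference was -1.88 ± 0.50 (SE, adjusted p = 0.0986). It passed when that litter was left out (-2.4, adjusted p = 0.00599), with DESeq2 (-1.63, adjusted p = 0.0315) and with the replicate number as a block (adjusted p = 0.0321).

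Cfap157, a basal body protein of flagella, was low in all libraries and had a difference of -1.79 ± 0.51 (adjusted p = 0.109, and 0.0482 with the replicate block). Its litters did not overlap, with -0.82, -1.32, -0.03 and -0.01 log2 CPM in WT and -2.18, -3.17, -2.59 and -1.4 in Nlrx1-/-. Rsph4a, a protein of the spoke head, differed by -1.53 ± 0.49 (adjusted p = 0.12) and passed without Nlrx1-/- litter 3 (-1.9, adjusted p = 0.023). Dnaic1 and Dnaaf1 differed by -0.93 ± 0.47 and -0.68 ± 0.50 (adjusted p of 0.262 and 0.45). In the other direction, the flagellar outer arm heavy chains Dnah8 and Dnah17 had differences of 1.13 ± 0.47 and 0.66 ± 0.31 (adjusted p of 0.193 and 0.23), and Dnah17 was the member whose litters did not overlap.

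After LPS + IFNγ, 11 of the 59 members were lower in Nlrx1-/- astrocytes than in WT and 0 were higher, where limma called 4.41% of all genes lower and 4.4% higher. Of all members 51 had a lower mean and 8 a higher one, and the median difference was -0.79, where that of all genes was -0.0. The litters did not overlap for 17 members lower in Nlrx1-/- (6.23% of all genes) and for 0 higher (7.09%). The 11 were the spoke genes Cfap206, Rsph4a and Rsph9, the heavy chains Dnah5, Dnah6 and Dnah7c, the central apparatus gene Cfap46, the tether gene Cfap44, the doublet inner protein Cfap126, the assembly factor Dnaaf1, and Cfap97d2. By prefix these were 5 of 32 Cfap, 3 of 15 Dnah, 1 of 5 Dnaaf, 2 of 5 Rsph and 0 of 2 Dnai genes.

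The 3 spoke genes included the member with the largest difference. Cfap206 (chr4:34688559-34730238, GRCm39), which links a radial spoke and dyneins to the doublet, was at 0.68, 1.47, 1.59 and 0.84 log2 CPM in the WT litters after LPS + IFNγ and at -1.98, -1.6, -0.23 and -3.55 in Nlrx1-/-. All Nlrx1-/- litters lay below all WT litters, and the difference was -2.99 ± 0.56 (7.93-fold lower, adjusted p = 0.0349). It rested on 7, 8, 31 and 1 estimated reads in the Nlrx1-/- litters against 40, 84, 88 and 58 in WT. Rsph4a (chr10:33781036-33792347) was at 0.91, 1.77, 2.25 and 0.72 in WT and at -1.29, -0.52, 0.12 and -0.77 in Nlrx1-/-, a difference of -2.03 ± 0.49 (4.08-fold lower, adjusted p = 0.0349). Its litters did not overlap either. Rsph9, another spoke head gene (chr17:46432961-46455178), differed by -0.82 ± 0.22 (1.76-fold lower, adjusted p = 0.0412), with WT litters from 2.92 to 3.77 and Nlrx1-/- litters from 2.26 to 2.96, so that the highest Nlrx1-/- litter reached past the lowest WT litter.

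Among the motors, Dnah6, an inner arm heavy chain (chr6:72994589-73199178), was at 1.84, 2.42, 3.32 and 2.49 log2 CPM in WT after LPS + IFNγ and at 0.36, -0.39, 1.44 and -0.21 in Nlrx1-/-. The litters did not overlap, and the difference was -2.22 ± 0.50 (4.65-fold lower, adjusted p = 0.0349). Dnah5, the outer arm heavy chain mutated in many patients with primary ciliary dyskinesia (chr15:28203898-28472198), was at 1.4, 1.91, 2.64 and 2.53 in WT and at 0.49, -0.46, 1.31 and 0.69 in Nlrx1-/-. Its difference was -1.61 ± 0.46 (3.05-fold lower, adjusted p = 0.0453), and each Nlrx1-/- litter was below each WT litter. Dnah7c (chr1:46464752-46846636) differed by -1.23 ± 0.35 (2.35-fold lower, adjusted p = 0.045), while its more abundant copy Dnah7b was not called (-0.72 ± 0.27, adjusted p = 0.0882). Of the intermediate chains, Dnaic2 differed by -0.74 ± 0.31 (adjusted p = 0.128).

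Cfap44 (chr16:44215138-44302791), part of the complex that tethers an inner arm, was at 2.54, 2.32, 3.33 and 3.0 log2 CPM in WT and at 1.35, -0.36, 2.18 and 1.46 in Nlrx1-/-, without overlap (-1.64 ± 0.47, 3.11-fold lower, adjusted p = 0.0451). Cfap97d2, a gene of little known function (chr8:13755885-13793414), was at 0.02, -0.23, 1.27 and 0.44 in WT and at -1.42, -0.94, -1.58 and -0.71 in Nlrx1-/- (-1.54 ± 0.39, 2.91-fold lower, adjusted p = 0.0367). It rested on 9, 7, 26 and 9 estimated reads in the Nlrx1-/- litters against 18, 37, 51 and 44 in WT. Nlrx1-/- litter 3 had the most reads of its group but the lowest length-scaled log2 CPM, so the size of this difference is uncertain. Dnaaf1, an assembly factor of both arm types (chr8:120301974-120325194), was at -0.42, -0.41, 1.06 and -0.38 in WT and at -1.03, -2.02, -1.76 and -2.49 in Nlrx1-/- (-1.79 ± 0.50, adjusted p = 0.0421), with 4 to 15 reads in the Nlrx1-/- libraries. In each of these genes every Nlrx1-/- litter was below every WT litter in log2 CPM. Cfap46 and Cfap126 were lower by 2.59-fold and 1.73-fold (adjusted p of 0.0349 and 0.0412).

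All 11 calls lay close to the threshold, between an adjusted p of 0.0349 and 0.0453, and they depended on single litters. Without WT litter 2, 3 or 4, or Nlrx1-/- litter 2 or 4, 0 members were called, and without Nlrx1-/- litter 3 it was 30. With litter as a random effect 18 members were lower, with the replicate number as a block 25, and in a fit of the 8 LPS + IFNγ libraries alone 0. Lower calls over all 16707 genes moved as well, from 736 to 1980 without Nlrx1-/- litter 3, 1063 with the random effect, 1445 with the block and 1 in the fit of those libraries alone. Differences of the 9 called genes Cfap206, Cfap44, Cfap97d2, Dnaaf1, Dnah5, Dnah6, Dnah7c, Rsph4a and Rsph9 stayed below 0 under every alternative run, where their calls did not.

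**Figure D3:**
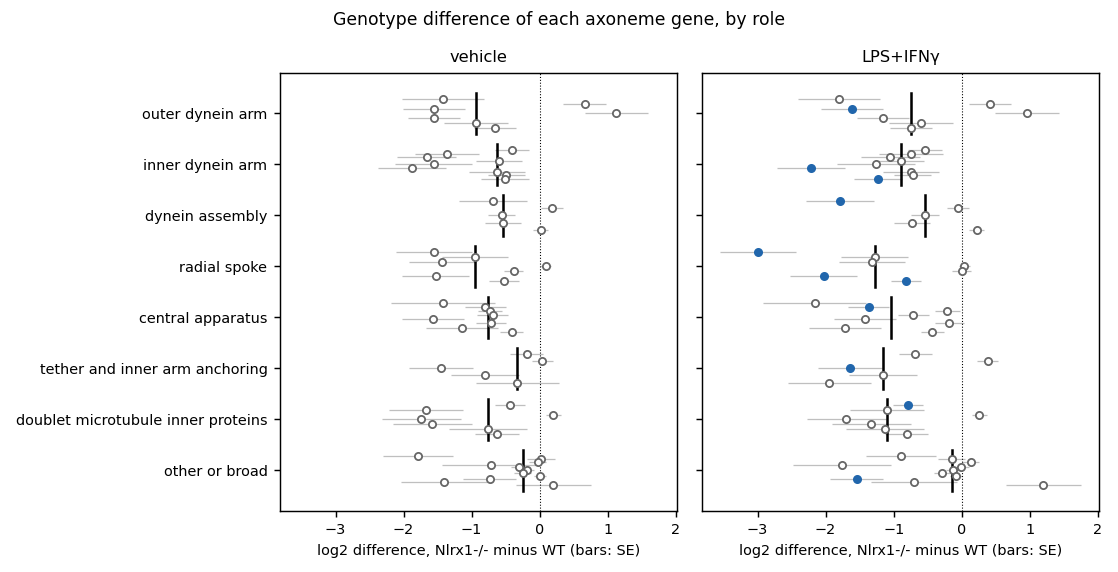
Log2 difference, Nlrx1-/- minus WT, of each axoneme gene (points, bars show SE) in vehicle and LPS + IFNγ, by role, with a black line at the median and filled blue points where the adjusted p was below 0.05. In vehicle 0 points are filled, and after LPS + IFNγ 11 are, all to the left of 0.

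The genes of other cell types were read beside these differences. The 12 ependymal markers in the table, of which Dynlrb2, Enkur and Ak7 are also axoneme genes of the wider list below, had a summed level of 109 to 212 CPM in Nlrx1-/- vehicle, below or within the WT range. After LPS + IFNγ it was 131 to 191 CPM in WT and 76.0 to 127 in Nlrx1-/-. After LPS + IFNγ 3 of the 12 were lower in Nlrx1-/-, and their median difference was -1.36. Foxj1 had a difference of -0.57 log2 units there (adjusted p = 0.048) and of -0.48 in vehicle (adjusted p = 0.139). All 7 oligodendrocyte lineage markers were in the table, with 0 called and a median difference of -1.42 in vehicle, and 1 lower (Pdgfra) and a median of -1.98 after LPS + IFNγ. The myelin genes Mbp, Mog and Mag had differences from -2.49 to -1.42 in vehicle, none of them called, where Olig2 and Cspg4 were at 0.16 and 0.02. Mbp was at 5.93, 2.49, 7.22 and 3.0 log2 CPM in Nlrx1-/- vehicle litters 1 to 4, where WT litters lay between 6.47 and 7.84. Of the 10 astrocyte markers 0 were called in vehicle, with a median difference of -0.36. Gfap was at 9.51, 7.37, 10.45 and 8.35 in Nlrx1-/- vehicle against 9.7 to 11.34 in WT (adjusted p = 0.12), while Aldh1l1 and Slc1a3 had differences of 0.17 and 0.06. After LPS + IFNγ 5 of 10 astrocyte markers were lower in Nlrx1-/-, including the water channel Aqp4 (-1.33, adjusted p = 0.0369). Summed choroid plexus markers (4 of 6 in the table, Kl and Prlr not) were at most 9.73 CPM in any library. Their median difference was -0.66 in vehicle, with 0 called, and -1.05 after LPS + IFNγ, with 1 lower (Folr1, -1.39, adjusted p = 0.043). The 5 neural stem cell markers had medians of 0.04 in vehicle, with 0 called, and -0.28 after LPS + IFNγ, with 1 lower (Prom1, -0.72, adjusted p = 0.039). The part of these cell types in the axoneme differences was not tested.

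The second kind of comparison asks how each genotype responded to LPS + IFNγ, within litters. In WT astrocytes 25 members fell and 5 rose, where limma with litter terms called 21.9% of all genes lower and 24.9% higher. The median response was -0.65, against -0.02 for all genes, and 35 members were lower in all 4 litters and 8 higher in all 4, where 5007 and 5213 of all 16707 genes were. In Nlrx1-/- astrocytes 29 members fell and 5 rose, against 25.5% and 26.6% of all genes, with a median of -0.63, and 28 were lower in all 4 litters and 6 higher in all 4, where 4851 and 4951 of all genes were. The median response by litter was -0.6, -0.48, -0.49 and -0.61 in WT and -0.77, -0.32, -0.76 and -0.41 in Nlrx1-/-. In both genotypes 19 members fell (32.2%) and 4 rose (6.78%), where 16.8% and 19.9% of all genes did, and 35 fell in at least one (59.3%, against 30.6% of all genes). Markers of other cell types changed in the same libraries, in both directions. Of the 12 ependymal markers 6 fell in WT and 9 in Nlrx1-/- and 0 rose, with medians of -0.74 and -0.97, and of the 7 oligodendrocyte lineage markers 5 fell in each genotype, with medians of -0.88 and -1.56. Of the 10 astrocyte markers 4 fell and 3 rose in WT and 5 fell and 2 rose in Nlrx1-/-, of the 5 neuronal markers 1 fell and 2 rose in WT and 2 fell and 2 rose in Nlrx1-/-, and the microglial P2ry12 rose in both (1.57 and 2.1). Of the 4 choroid plexus markers 1 fell in WT and 2 in Nlrx1-/-. Of the 5 neural stem cell markers 2 fell in WT, and 3 fell and 1 rose in Nlrx1-/-. The part of these cell types in the responses was not tested.

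Among the anchoring genes, Cfap100, which helps to anchor inner arms (chr6:90380461-90405825), went from 3.04, 3.37, 4.01 and 4.0 log2 CPM in WT vehicle to 2.13, 1.74, 2.24 and 1.98, and from 3.16, 3.18, 3.68 and 3.66 in Nlrx1-/- vehicle to 1.29, 0.92, 1.81 and 1.35. It fell in all 8 litters, with responses of -1.58 ± 0.18 in WT (adjusted p = 1.83e-05) and -2.07 ± 0.18 in Nlrx1-/- (adjusted p = 1.58e-06). Cfap44 fell too (-1.53 ± 0.13 and -1.71 ± 0.13, adjusted p of 1.4e-06 and 4.56e-07), and its litters ranged from -1.81 to -1.42 in WT and from -1.93 to -1.51 in Nlrx1-/-. Of the 8 central apparatus genes 6 fell in each genotype. Among these Cfap69 had responses of -1.48 ± 0.17 in WT and -0.94 ± 0.17 in Nlrx1-/- (adjusted p of 2.2e-05 and 0.000602), and Cfap54 of -1.03 ± 0.12 and -1.06 ± 0.12 (adjusted p of 2.22e-05 and 1.51e-05).

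Of 9 inner arm genes 6 fell in each genotype and 0 rose. Dnah7b went from 4.93, 4.92, 5.25 and 5.22 log2 CPM to 3.79, 3.74, 3.92 and 4.39 in WT and from 4.56, 3.94, 4.89 and 4.98 to 3.38, 2.53, 4.0 and 3.06 in Nlrx1-/-, a fall of 2.17-fold and 2.55-fold (adjusted p of 4.73e-05 and 8.57e-06). Dnah6 had responses of -0.85 ± 0.17 and -1.19 ± 0.17, Dnah12 of -1.48 ± 0.33 and -0.88 ± 0.33, and Dnah7c of -1.04 ± 0.34 and -1.76 ± 0.34, all of them called. Dnah3 was called in WT alone (-1.13 ± 0.43, adjusted p = 0.0485), with -0.83 ± 0.43 in Nlrx1-/- (adjusted p = 0.126), and it lost the call with edgeR and DESeq2, without WT litter 2, 3 or 4 (-0.689 without litter 4), and without Nlrx1-/- litter 2.

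Of the 7 outer arm genes 3 fell in each genotype, and 1 rose in WT. Dnah9 fell (-1.25 ± 0.21 in WT and -0.87 ± 0.21 in Nlrx1-/-, adjusted p of 0.000362 and 0.00389), as did Dnah8 (-0.69 ± 0.24 and -0.86 ± 0.24). Dnaic2 went from 3.0, 3.66, 3.75 and 3.59 log2 CPM to 1.98, 3.07, 2.99 and 3.02 in WT, a fall of 1.67-fold, and fell 1.76-fold in Nlrx1-/-, in all 8 litters (adjusted p of 0.00135 and 0.000544). Dnah5, lower in Nlrx1-/- after LPS + IFNγ, had responses of 0.11 ± 0.23 and 0.05 ± 0.23 (adjusted p of 0.722 and 0.883). Dnah17 rose in WT (0.91 ± 0.30, adjusted p = 0.0266), with litters at 1.62, 0.04, 1.34 and 0.63, and was not called without WT litter 1 or 3. Dnah14, listed among the heavy chains without a settled place in an arm, rose in Nlrx1-/- (1.36 ± 0.48, adjusted p = 0.033) on 9, 10, 11 and 34 reads after LPS + IFNγ against 8, 6, 2 and 5 in vehicle. It was not called without Nlrx1-/- litter 2, 3 or 4, with DESeq2 (adjusted p = 0.0725) or without litter terms (adjusted p = 0.0589).

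Of the 7 spoke genes 4 fell in each genotype. Rsph4a had responses of -1.38 ± 0.38 in WT and -1.88 ± 0.38 in Nlrx1-/- (adjusted p of 0.0111 and 0.00144), below 0 in all 8 litters, from -0.11 in Nlrx1-/- litter 2 to -2.93 in litter 1, and the WT call was lost without WT litter 4 (adjusted p = 0.0664). Cfap206 fell 2.0-fold in WT and 5.41-fold in Nlrx1-/- (adjusted p of 0.0197 and 4.56e-05). Rsph1 was called in WT (-0.84 ± 0.29, adjusted p = 0.0332) and Rsph9 in Nlrx1-/- (-0.56 ± 0.12, adjusted p = 0.00265), with the other genotype at -0.72 ± 0.29 and -0.26 ± 0.12, and the call of Rsph1 was lost without any 1 of the WT litters (adjusted p of 0.0524 to 0.171). The stalk gene Rsph3a had values of 0.11 ± 0.07 and 0.06 ± 0.07, and Rsph3b fell in WT (-0.40 ± 0.13, adjusted p = 0.0199) and was at -0.03 ± 0.13 in Nlrx1-/-, and its call was lost without WT litter 1, 2 or 4 (adjusted p of 0.0539, 0.0682 and 0.0961). Cfap97d2, outside these roles, fell in both genotypes (-1.36 ± 0.38 and -2.17 ± 0.38, adjusted p of 0.0109 and 0.000469).

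The 4 members that rose in both genotypes were Cfap20, Cfap298, Dnaaf3 and Dnaaf5. Cfap298 went from 4.67, 4.54, 4.75 and 4.45 log2 CPM to 5.05, 5.03, 5.19 and 4.7 in WT and from 4.57, 4.69, 4.79 and 4.27 to 5.03, 5.24, 4.99 and 5.23 in Nlrx1-/-. It was higher in all 8 litters, by 1.31-fold and 1.46-fold (adjusted p of 0.00777 and 0.000811). Dnaaf5, an assembly factor with HEAT repeats, rose 1.25-fold and 1.44-fold (adjusted p of 0.0183 and 0.000779), and Dnaaf3 by 0.61 ± 0.18 and 0.64 ± 0.18 log2 units (adjusted p of 0.0132 and 0.00928). The Dnaaf3 call was lost in WT without litter 1 (adjusted p = 0.0603) and in Nlrx1-/- without litter 2 (adjusted p = 0.0504). Cfap20 rose by 0.28 ± 0.07 and 0.34 ± 0.07 (adjusted p of 0.00443 and 0.0012). Of the other assembly factors, Dnaaf1 fell in Nlrx1-/- (-1.18 ± 0.38, adjusted p = 0.0197) and was at -0.07 ± 0.38 in WT. That call was lost without Nlrx1-/- litter 3 (-0.82, adjusted p = 0.113) or litter 4 (-1.11, adjusted p = 0.056). Dnaaf2 and Dnaaf4 were called in neither genotype. With libraries centred on their median, Dnaaf5 was not called in WT (0.233, adjusted p = 0.0605), nor was it without WT litter 1, 3 or 4, and 32 members fell and 4 rose in WT on that scale. Over all genes that scale moved the lower calls in WT from 3656 to 4774 and the higher calls from 4154 to 3261.

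**Figure D4:**
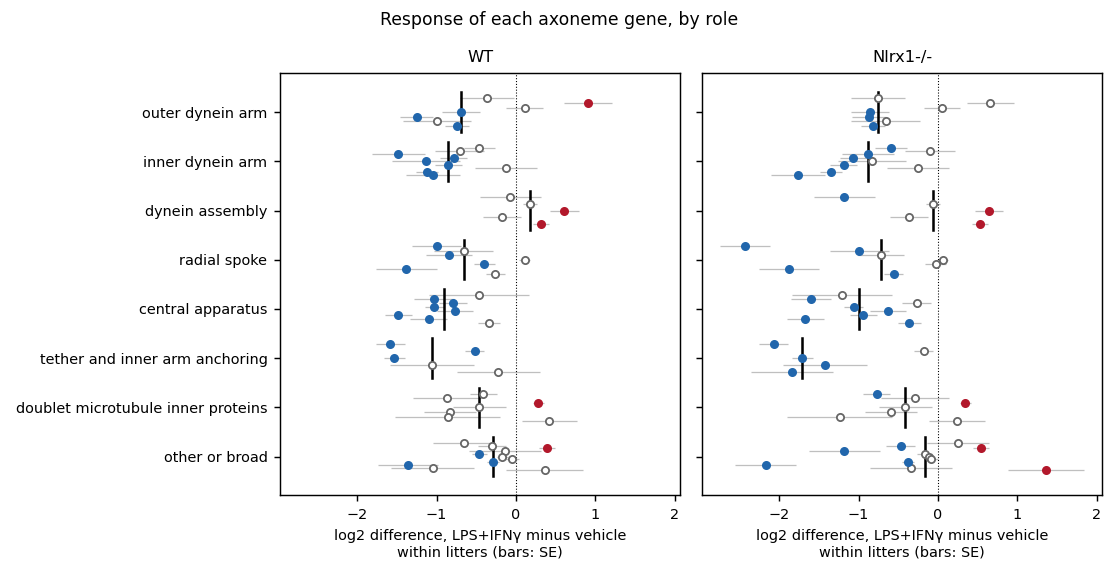
Log2 difference, LPS + IFNγ minus vehicle within litters, of each axoneme gene (points, bars show SE) in WT and Nlrx1-/- astrocytes, by role, with black lines at medians, blue points for called lower and red points for called higher. In WT 25 points are blue and 5 red, in Nlrx1-/- 29 and 5.

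The third comparison asks whether the response differed between the genotypes. The median difference of the responses over the members was -0.09, with 36 below 0 and 23 above, and 0 members were called by limma, where 0.0% of all genes were. edgeR and DESeq2 called 0 members as well, while over all genes edgeR called 0 and DESeq2 187 lower and 105 higher. At an unadjusted p of 0.05 the members Cfap206, Cfap73, Cfap69 and Cfap300 passed (4 of 59), against 16.7% of all genes, and the smallest adjusted p was 0.182. For Cfap206 the difference was -1.43 ± 0.44, the fall being larger in Nlrx1-/-, and for Cfap69 it was 0.54 ± 0.24, the fall being smaller. Cfap73, an anchoring partner of Cfap100 in the axoneme, had -1.62 ± 0.73 (adjusted p = 0.292) on 0, 0, 1 and 1 reads in the Nlrx1-/- LPS + IFNγ litters, so that its size depends on the small count added before the logarithm. The genotype differences in LPS + IFNγ and the Nlrx1-/- responses share the same 4 libraries, and 10 of the 11 genes lower in the former were also lower in the latter, with Dnah5 the exception.

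**Figure D5:**
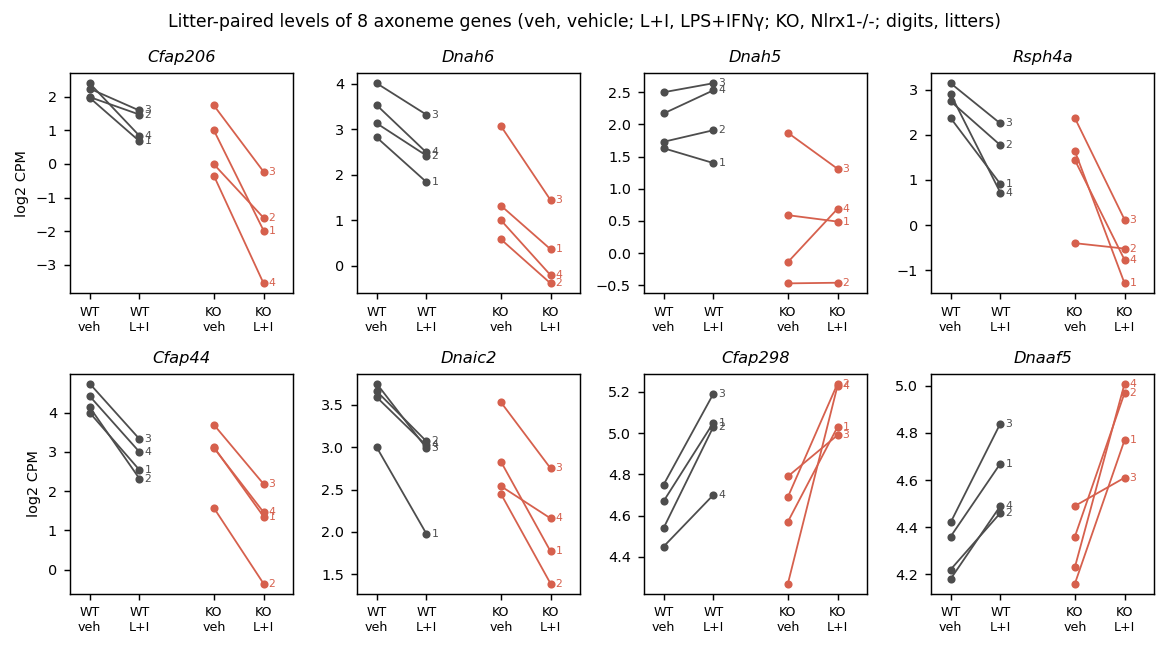
Log2 CPM of 8 axoneme genes in vehicle (veh) and LPS + IFNγ (L+I), with a line joining the libraries of a litter, WT in grey and Nlrx1-/- (KO) in red, digits naming the litter, and a scale of its own for each gene. Lines of Cfap44 and Dnah6 run down in all 8 litters, those of Cfap298 and Dnaaf5 run up in all 8, and the Nlrx1-/- lines of Cfap206 and Rsph4a end below all WT lines.

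Axoneme genes outside the 5 prefixes were described from a list of 50, of which 43 were in the table. In vehicle 42 of the 43 had a lower mean in Nlrx1-/- cells, with a median of -1.06, and limma called 0 of them, with 29 at an unadjusted p of 0.05 (21.1% of all genes). After LPS + IFNγ 15 were lower and 0 higher, against 4.41% and 4.4% of all genes, with a median of -1.15. These calls carry the same limit as those of the members, since without WT litter 2, 3 or 4 or Nlrx1-/- litter 2 or 4 only 1 or 2 genes of the whole table were called lower. The 3 called with the largest differences were Meig1 (-2.33 ± 0.50, adjusted p = 0.0349), Zmynd10, which acts in dynein assembly (-2.24 ± 0.46, adjusted p = 0.0349), and Tekt1, a filament protein inside the doublets (-2.21 ± 0.64, adjusted p = 0.046). In the responses 26 fell in WT and 31 in Nlrx1-/- (21.9% and 25.5% of all genes), where in the latter Ropn1l, a spoke-associated protein, was the single one that rose (0.58 ± 0.18, adjusted p = 0.0157). The median response was -0.8 in WT and -0.99 in Nlrx1-/-. Foxj1 fell as well (-0.51 in WT and -0.59 in Nlrx1-/-, adjusted p of 9.65e-06 and 2.18e-06).

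Across the 5 prefixes, 17 of the 59 members (28.8%) were called in none of the comparisons, against 37% of all genes. Among these was Cfap36, the most abundant member, at -0.18 ± 0.10 in vehicle and -0.13 ± 0.10 after LPS + IFNγ between genotypes, and at -0.17 ± 0.07 and -0.12 ± 0.07 in the WT and Nlrx1-/- responses (adjusted p between 0.0658 and 0.39).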

How the data were processed

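Members and gene lists were chosen with earlier results of these data known. Conditions and litters came from the sample labels; a litter number shared by WT and Nlrx1-/- names no shared animal. The authors quantified transcripts with Salmon 1.7.0 against the GRCm39 transcriptome from non-stranded, poly-A selected libraries and deposited an expected count and a TPM per transcript. They summarised these per gene with length scaling, filtered low genes with a group size of 4, and scaled by TMM. The deposited CPM are this TMM-scaled signal and the deposited log2 values are their logarithm with a small added count. Versions of Salmon and of limma (3.58.1) come from the submitters' processing notes and the study's methods.

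The log2 CPM of all 16707 genes were fitted with limma 3.58.1 (R 4.3.3, eBayes with trend), with Benjamini-Hochberg adjustment over all genes and a threshold of 0.05. The genotype differences came from the means of the 4 conditions over 16 libraries. This fit left out the pairing, so the vehicle and LPS + IFNγ libraries of a litter entered as separate observations. The consensus correlation within litters from limma was 0.364, and litter as a random effect was an alternative. Responses and their difference were fitted with litter terms within genotype, following the study's formula. Libraries of a litter correlated across genes after centring (Pearson r 0.073 to 0.355 over 8 pairs, median 0.218). Pairs from other litters of the genotype had r of -0.353 to 0.154 (median -0.052), so the ranges overlapped. Vehicle and stimulated wells of a litter came from the same mice. Alternatives were edgeR 4.0.16 and DESeq2 1.42.0 on expected counts summed per gene (rounded to whole numbers; 96.7% to 97.3% of reads paired with a symbol), log2 of CPM plus 0.5, median-centred libraries, a mean of at least 1 CPM, blocks, and leaving out each litter. The precision of a value follows from its reads and from the spread between litters.

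Named in full are, for each comparison and prefix, up to 3 members called lower and up to 3 called higher with the largest change, or the most changed member where none was called; the members with the highest and lowest mean of each prefix; and every member called against the median of its prefix. This gave 29 genes, and others were named after their values were seen. Scripts were tested on simulated data. Tables were handled with pandas 2.3.3 in Python 3.11.15, and plots drawn with matplotlib 3.10.9. Gene positions are from GENCODE M39 by symbol, with Dnai1 and Dnai2 for the older names.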

Additional observations from a re-analysis of the deposited data

Results flagged for a closer look

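Within each condition the highest and lowest litter of the named members were compared with the others by Dixon's criterion for 4 samples. Of 116 groups tested 3 passed, where chance passes about 1 in 20 groups. Dnaaf1 stood at 1.06 log2 CPM in WT LPS + IFNγ litter 3, above the other litters at -0.42 to -0.38, and at 0.51 in Nlrx1-/- vehicle litter 3, above -1.12 to -0.87. Dnaic2 stood at 1.98 in WT LPS + IFNγ litter 1, below the others at 2.99 to 3.07. Without WT litter 3 the Dnaaf1 difference between genotypes after LPS + IFNγ was -1.43 (adjusted p = 0.127), and without WT litter 1 that of Dnaic2 was -1.0 (adjusted p = 0.0411). Without Nlrx1-/- litter 3 the response of Dnaaf1 in Nlrx1-/- was -0.82 (adjusted p = 0.113).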

How the results depend on the processing

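In vehicle, members called lower numbered 6 with DESeq2, 12 with the replicate block and 0 to 19 when single litters were left out (2 without WT litter 1, 19 without Nlrx1-/- litter 3), and members called higher 0 to 1; over all genes, lower calls went from 1 to 266, 233, 163 and 930 in the fits with DESeq2, with the block, without WT litter 1 and without Nlrx1-/- litter 3. After LPS + IFNγ the 11 lower members became 7 with edgeR, 18 with DESeq2, 25 with the replicate block, 18 with litter as a random effect, 0 with the libraries of the treatment alone and 0 to 30 without single litters (17 without WT litter 1, 0 without WT litter 2, 3 or 4 or Nlrx1-/- litter 2 or 4, 4 without Nlrx1-/- litter 1, 30 without Nlrx1-/- litter 3), and the higher 0 to 2. Of the 7 with edgeR, 6 were among the 11. Lower calls over all genes went from 736 to 1 or 2 in those fits with 0 members. They were 363 of 16066 genes with edgeR, 1167 of 35297 with DESeq2, 1084 without WT litter 1 and 404 without Nlrx1-/- litter 1. Higher calls over all genes went from 735 to 1888 without Nlrx1-/- litter 3, and in vehicle from 0 to 688. The labels do not say whether litters with the same replicate number were raised or processed together across genotypes. The study's text states that WT and Nlrx1-/- cultures came from pups born on the same day, without tying this to replicate numbers. Libraries of the same number and other genotype correlated over all genes at r of -0.089 to 0.18 (median -0.007), while litter 3 was the highest for most members in both genotypes. Whether the replicate block fits the design was not settled. In the responses, calls without the pairing (no replicate block) were 16 lower in WT and 17 in Nlrx1-/-, with 2651 and 3299 genes lower over the whole table in place of 3656 and 4256. Without single litters, members higher in the response numbered 2 to 5 in WT (2 without WT litter 1, 3 without WT litter 3) and 3 to 5 in Nlrx1-/- (3 without Nlrx1-/- litter 2). Over all genes the higher calls went from 4154 to 3618 and 3507 in WT without WT litter 1 and 3. In Nlrx1-/- they went from 4448 to 4142 without Nlrx1-/- litter 2. The median WT response was -0.587 with edgeR, -0.442 with log2 of CPM plus 0.5, -0.741 with centred libraries and -0.698 to -0.509 without single litters, and the Nlrx1-/- median -0.386 with log2 of CPM plus 0.5. The difference of the responses of Dnaic1 was between -0.125 and 0.925 without single litters, below 0 only without Nlrx1-/- litter 4 (0.33 with all). The cause of these shifts was not tested. Of the 11 members lower after LPS + IFNγ, 4 had fewer than 10 estimated reads in at least 1 library.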

Other observations

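The RefSeq reference used holds 65 gene symbols with the 5 prefixes, and the 6 outside the table had few reads in these astrocytes. Genes under other symbols were not counted. The highest estimated read count in any library was 28 for Dnaaf6b, 21 for Cfap58, 18 for Rsph14, 4 for Rsph6a, 3 for Dnaaf6 and 0 for Cfap97d1.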
